A study of Homo sapiens with 12 samples.

Results

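Retinoid metabolism and signalling was followed through 9 genes: the oxidoreductases RDH10, DHRS9 and DHRS3, the retinaldehyde dehydrogenase ALDH1A3, the binding protein CRABP2, the retinoic acid receptors RARA, RARB and RARG, and the retinoic acid hydroxylase CYP26B1. They were matched by gene name in the deposited tables and are 9 of the 34227 genes listed in either table. They had been chosen for their values with squamocin and with DMSO in these libraries, so that comparison is given for them as a description. Their calls in it are counted below, but nothing is read from those counts. Tests are given for the comparison of the untreated cell lines, which shares its DMSO libraries with that choice, and for the other genes of the pathway, which were listed with earlier results of these data known.

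Transcriptomes were read in SCC15 and SCC25 cells, established lines of oral squamous cell carcinoma, after 24 h with squamocin (10 µg/mL) or with its solvent DMSO. The sample labels call the treatment ACGs, for annonaceous acetogenins, the plant compounds to which squamocin belongs, and give the genotype of all cells as WT. Each of the 4 groups (SCC15 with ACGs, SCC15 with DMSO, SCC25 with ACGs, SCC25 with DMSO) held 3 libraries. The labels do not say whether the libraries came from separate cultures, so that the errors and p-values measure the spread between these libraries, which may be technical.

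Vitamin A circulates as retinol, which is oxidised to retinaldehyde by enzymes such as RDH10 and then, irreversibly, to retinoic acid by the ALDH1A enzymes. DHRS3 works against RDH10 by reducing retinaldehyde back to retinol. CRABP2 carries retinoic acid to the nuclear receptor RAR, which binds DNA as a pair with RXR, and the CYP26 enzymes degrade retinoic acid. In squamous epithelia, retinoids are known for restraining keratinisation and terminal differentiation, and RARB, DHRS3 and CRABP2 are among the genes known to respond to retinoic acid.

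The classical site at which a RAR-RXR pair binds is a direct repeat of a 6-base arm with 5 bases between the arms (DR5). Its arm was searched as AGGTCA, with AGTTCA, also with GGTTCA and with GGGTCA, on both strands (a DR5 holds such arms by definition), in the RefSeq promoter windows (GRCh38.p14) from 250 bases before to 50 bases after each start site. The table held 18 windows for 8 of the genes and none for RDH10. The only DR5 among the 18 windows was in RARB, and 0.0883% of all 35116 windows hold one. The following stretches are shown because RARB carries the full DR5 while DHRS3 and CRABP2 carry single arms and no DR5, with the arms in capitals, read 5′ to 3′ on the strand of the gene.
RARB: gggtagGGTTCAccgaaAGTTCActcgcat
DHRS3: tcttttttggcaGGTTCAgagttgatccgc
CRABP2: gGGTTCAatggagctagggccagctacggc
The RARB stretch is chr3:25428204-25428233 on the plus strand, in an annotated exon of RARB, and its DR5 lies 53 to 37 bases before a start site inside the gene. The DHRS3 stretch is chr1:12616944-12616973 on the minus strand, within DHRS3 and outside its exons, and the CRABP2 stretch is chr1:156706005-156706034 on the minus strand, before the gene. A single arm is common, being present in 8 of the 18 windows and in 38.6% of all windows. No arm was found in the windows of ALDH1A3, RARG or CYP26B1. These are matches of letters and not measured binding sites.

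The values are normalized counts, meaning reads per gene divided by 1 size factor per library. The libraries held 16665563 to 22748845 reads on genes. Replicate 3 of SCC15 with squamocin stood apart from its group: its counts differed from those of replicates 1 and 2 by 71.6 and 63.5 times the sampling noise (chi-square per degree of freedom), against 1.72 to 11.02 for the other 10 pairs of replicates. The 8 squamous markers used as a check (KRT5, KRT14 and TP63 among them) were all detected in each group, 1 of them at 3 reads or fewer per library in SCC15, and their summed level was 6244 to 6611 RPM (reads over a library size set jointly for all libraries by TMM) in SCC15 with DMSO, 10992 to 19001 in SCC15 with squamocin, 1697 to 1715 in SCC25 with DMSO and 2350 to 2492 in SCC25 with squamocin. That sum moved with the treatment and its part in the results was not tested. The summed levels of fibroblast, endothelial and immune markers were at most 63.0, 10.02 and 1.76 RPM, with 6 of 6, 2 of 4 and 2 of 5 of those markers in both tables and DCN at 0 in SCC25 with squamocin. As the RNA is from bulk cultures, fewer cells that express a gene and less RNA per cell cannot be told apart.

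Before treatment the members differed in level between the 2 cell lines. Of the 9 genes, DHRS9, DHRS3, RDH10, ALDH1A3 and CRABP2 were higher in untreated SCC25 cells, and the receptors RARA and RARG and CYP26B1 were higher in untreated SCC15 cells. As the deposited tables were normalized separately, the cell lines were compared on reads rescaled jointly over all libraries (TMM), by limma with Benjamini-Hochberg adjustment over 16939 genes. Of the 7 members with a mean of at least 10 in both lines, 3 were called higher and 4 lower in SCC15, where 81.2% of all genes tested were called (40.7% higher and 40.5% lower). DHRS9 passed the filter only through SCC25, where it is high, so it had to differ and is not counted. Whatever else differed between the cultures of the 2 lines cannot be told apart from the cell line.

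ALDH1A3, the enzyme that makes retinoic acid from retinaldehyde, had 620, 655 and 683 joint normalized reads in the untreated SCC15 libraries and 10119, 9956 and 10146 in those of SCC25. The difference was -3.95 on the log2 scale (SCC15 minus SCC25, SE 0.036, adjusted p = 7.88e-21), or 15.4-fold. DHRS3, which turns retinaldehyde back to retinol, had 254, 202 and 262 reads against 6133, 6290 and 6071, a log2 difference of -4.69 (SE 0.072, adjusted p = 3.35e-18). For both genes every SCC25 library was many times above every SCC15 library.

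CRABP2 had 60.5, 57.0 and 71.6 joint normalized reads in SCC15 and 706, 729 and 776 in SCC25 (log2 difference -3.53, SE 0.10, adjusted p = 9.45e-15). RDH10, which makes retinaldehyde, had 271, 303 and 297 against 1324, 1240 and 1164 (log2 difference -2.09, SE 0.063, adjusted p = 1.86e-14). DHRS9, a retinol dehydrogenase of epithelial cells, was all but absent from SCC15, with 1 read over the 3 untreated libraries against 1132 reads in SCC25. The read ratio was 1078 with an exact 95% interval of 193 to 42598. Such intervals cover counting error only, as the reads carry no molecular identifiers.

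The receptors and the hydroxylase ran the other way. CYP26B1, which breaks retinoic acid down, had 478, 515 and 470 joint normalized reads in untreated SCC15 and 27.3, 23.4 and 23.1 in SCC25 (log2 difference 4.26, SE 0.13, adjusted p = 1.88e-14). RARA had 897, 851 and 860 against 296, 269 and 254 (log2 difference 1.67, SE 0.066, adjusted p = 6.72e-13). RARG, the main RAR of stratified epithelia, had 1452, 1526 and 1488 against 1071, 1009 and 1054, a smaller log2 difference of 0.51 (SE 0.041, adjusted p = 7.06e-09). RARB was too low to test, with 17 reads over the SCC15 libraries and 12 over those of SCC25 (SCC25 to SCC15 ratio 0.672, exact 95% interval 0.293 to 1.49), so no difference was detectable at this depth.

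Per kilobase of exon, which allows genes to be set beside each other, the order of the levels also differed. In untreated SCC25, ALDH1A3 was the highest at 86.0 ± 0.86 RPM per kilobase (SD, n = 3), followed by DHRS3 at 79.9 ± 1.5, CRABP2 at 31.0 ± 1.4, RDH10 at 10.6 ± 0.71, RARG at 9.28 ± 0.29, DHRS9 at 4.47 ± 0.14, RARA at 2.62 ± 0.21, CYP26B1 at 0.231 ± 0.022 and RARB at 0.0187 ± 0.013. No neighbours in that order overlapped in their ranges. In untreated SCC15, RARG was the highest at 13.3 ± 0.42, followed by RARA at 8.37 ± 0.22, ALDH1A3 at 5.58 ± 0.26 and CYP26B1 at 4.60 ± 0.26. DHRS3 (3.11 ± 0.40), CRABP2 (2.66 ± 0.30) and RDH10 (2.49 ± 0.16) came next, and in this run DHRS3 overlapped CRABP2 and CRABP2 overlapped RDH10. RARB and DHRS9 were last, both under 0.05 RPM per kilobase.

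**Figure D1:**
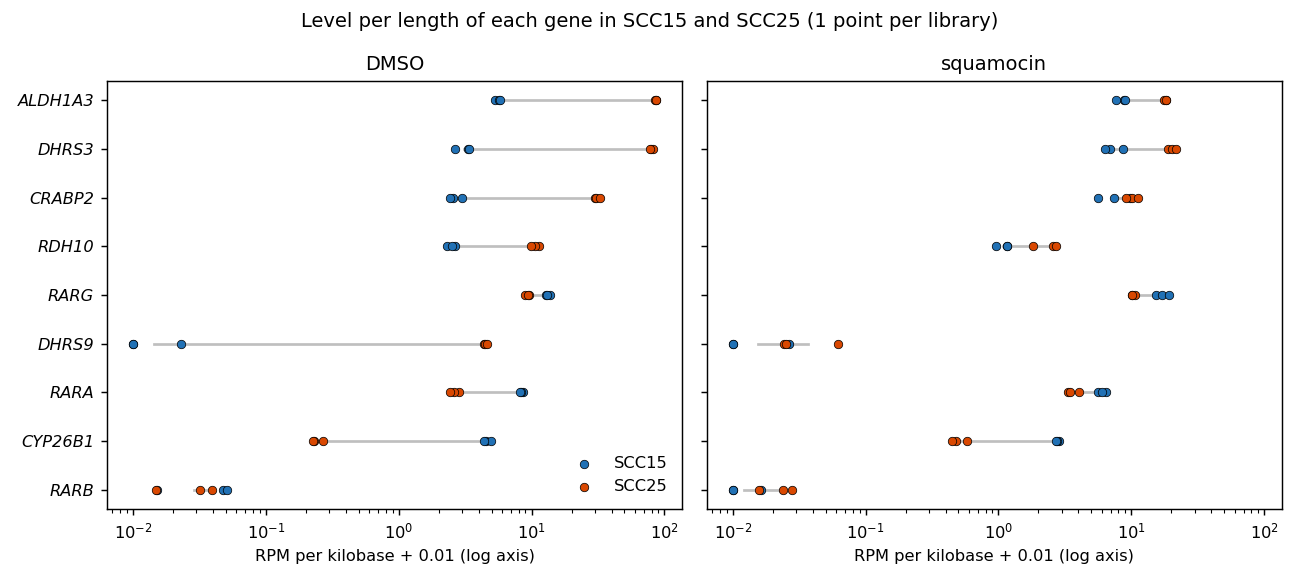
Level of each gene in RPM per kilobase of exon plus 0.01, on a log axis, with 1 point per library of SCC15 (blue) and SCC25 (orange) and a grey line between the means, for DMSO (left) and squamocin (right). With DMSO the lines are longest for DHRS9, DHRS3, CYP26B1 and ALDH1A3, and with squamocin the points of the 2 cell lines lie closer together for all genes that could be tested in both except RARG.

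With squamocin, the enzymes and the binding protein that were high in SCC25 were lower there, and 3 of them, DHRS3, ALDH1A3 and CRABP2, were higher in SCC15. RARA and CYP26B1, which were high in untreated SCC15, were lower in SCC15 and higher in SCC25. RDH10 was lower in both lines, and RARG was higher in both, except that with all libraries scaled to equal totals its log2 fold change was -0.043 in SCC15 and -0.045 in SCC25. By limma, 4 of the 7 members tested in SCC15 were called higher and 3 lower, where 61.0% of 15902 genes were called (30.9% higher, 30.0% lower). In SCC25, 3 of 8 were called higher and 5 lower (among them DHRS9, which passed the filter only through its DMSO libraries), where 76.8% of 16539 genes were called (38.3% higher, 38.5% lower). For each of these members the libraries of the treatments did not overlap, as for 70.6% of all genes in SCC15 and 79.0% in SCC25. As the members had been chosen on these values, nothing is read from these counts. DHRS9 in SCC15 and RARB in both lines had a mean under 10 normalized counts and were not fitted.

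RDH10 (ENSG00000121039) had 222, 248 and 243 normalized counts in SCC15 with DMSO and 95.1, 115 and 117 with squamocin. In SCC25 it had 1174, 1096 and 1025 with DMSO and 269, 281 and 189 with squamocin. The libraries did not overlap in either line, and the log2 fold change was -1.12 (SE 0.13) in SCC15 and -2.17 (SE 0.13) in SCC25. RDH10 shares its locus with the ribosomal protein gene RPL7 on the opposite strand, whose mean went from 6094 to 17942 normalized counts under squamocin in SCC15 and from 23209 to 23462 in SCC25. Whether the authors counted by strand is not given in the sources used here, and the part of RPL7 in the RDH10 values was not tested.

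DHRS9 (ENSG00000073737, chromosome 2, 169064789 to 169096167, plus strand) held 393, 359 and 380 reads in the SCC25 libraries with DMSO and 3, 1 and 1 with squamocin. In normalized counts these were 317, 323 and 336 against 3.8, 1.0 and 1.1. The transcript thus went from 359 to 393 reads per library to the floor of 3 reads or fewer. The read ratio of DMSO to squamocin was 172, with an exact 95% interval of 73.6 to 531. In SCC15 the gene held 1 read over the 3 libraries of each treatment, so no fold is given.

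DHRS3 (ENSG00000162496, chromosome 1, 12567910 to 12617731, minus strand) had 208, 165 and 214 normalized counts in SCC15 with DMSO and 463, 422 and 576 with squamocin. The SCC25 libraries held 5439, 5561 and 5347 with DMSO and 1312, 1376 and 1489 with squamocin. Squamocin libraries were all above those with DMSO in SCC15 and all below in SCC25, by a log2 fold change of 1.31 (SE 0.16) and -1.97 (SE 0.051). Without replicate 3 of SCC15 with squamocin the value in SCC15 was 1.18 (SE 0.11).

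ALDH1A3 (ENSG00000184254, chromosome 15, 100877714 to 100916626, plus strand) had 508, 536 and 558 normalized counts in SCC15 with DMSO and 884, 910 and 784 with squamocin. Levels in SCC25 were 8973, 8803 and 8937 with DMSO and 1903, 1821 and 1883 with squamocin. The libraries did not overlap in either line, and the log2 fold change was 0.68 (SE 0.095) in SCC15 and -2.25 (SE 0.039) in SCC25, the latter 4.76-fold lower. Scaled to equal totals, SCC15 gave 0.19.

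CRABP2 (ENSG00000143320, chromosome 1, 156699606 to 156705816, minus strand) had 49.5, 46.6 and 58.5 normalized counts in SCC15 with DMSO and 115, 152 and 202 with squamocin. The SCC25 values were 626, 645 and 683 with DMSO and 215, 236 and 193 with squamocin. It was above its DMSO libraries throughout in SCC15 and below them throughout in SCC25, with a log2 fold change of 1.55 (SE 0.22) and -1.60 (SE 0.087). Replicate 3 was the highest of the SCC15 squamocin libraries, and the value without it was 1.35 (SE 0.18).

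RARA (ENSG00000131759, chromosome 17, 40309192 to 40357643, plus strand) had 735, 697 and 702 normalized counts in SCC15 with DMSO and 505, 576 and 549 with squamocin. For SCC25 the counts were 263, 237 and 224 with DMSO and 310, 317 and 374 with squamocin. The treatments did not overlap, and the log2 fold changes of -0.39 (SE 0.089) in SCC15 and 0.46 (SE 0.10) in SCC25 were small beside those of the enzymes. RARG (ENSG00000172819, chromosome 12, 53210567 to 53232980, minus strand) had 1188, 1249 and 1215 normalized counts in SCC15 with DMSO and 1495, 1649 and 1885 with squamocin. Those of SCC25 were 950, 892 and 929 with DMSO and 1023, 1064 and 1016 with squamocin. The log2 fold change of RARG was 0.45 (SE 0.10) in SCC15, 0.37 (SE 0.055) there without replicate 3, and 0.16 (SE 0.053) in SCC25, signs that turn with equal library totals as given above.

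RARB (ENSG00000077092, chromosome 3, 25174332 to 25597932, plus strand), the receptor gene with the DR5 shown above, held few reads in every library. It held 1, 8 and 8 reads in SCC15 with DMSO and 0, 1 and 0 with squamocin, and 5, 6 and 1 against 2, 1 and 3 in SCC25. The treatments overlapped in both lines. The read ratio of squamocin to DMSO was 0.0828 in SCC15 (exact 95% interval 0.00198 to 0.529) and 0.657 in SCC25 (0.202 to 1.89). TOP2B, which overlaps RARB on the opposite strand, had means of 1207 to 3216 normalized counts, and its part in these few reads was not tested.

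CYP26B1 (ENSG00000003137, chromosome 2, 72129238 to 72148038, minus strand) had 392, 421 and 384 normalized counts in SCC15 with DMSO and 262, 253 and 249 with squamocin. In SCC25 it had 24.2, 20.7 and 20.4 with DMSO and 44.5, 54.1 and 41.1 with squamocin. The treatments did not overlap, and the log2 fold change was -0.65 (SE 0.094) in SCC15 and 1.06 (SE 0.23) in SCC25. The SCC25 value rests on 76 reads with DMSO and 124 with squamocin, a read ratio of 2.14 with an exact 95% interval of 1.60 to 2.89.

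**Figure D2:**
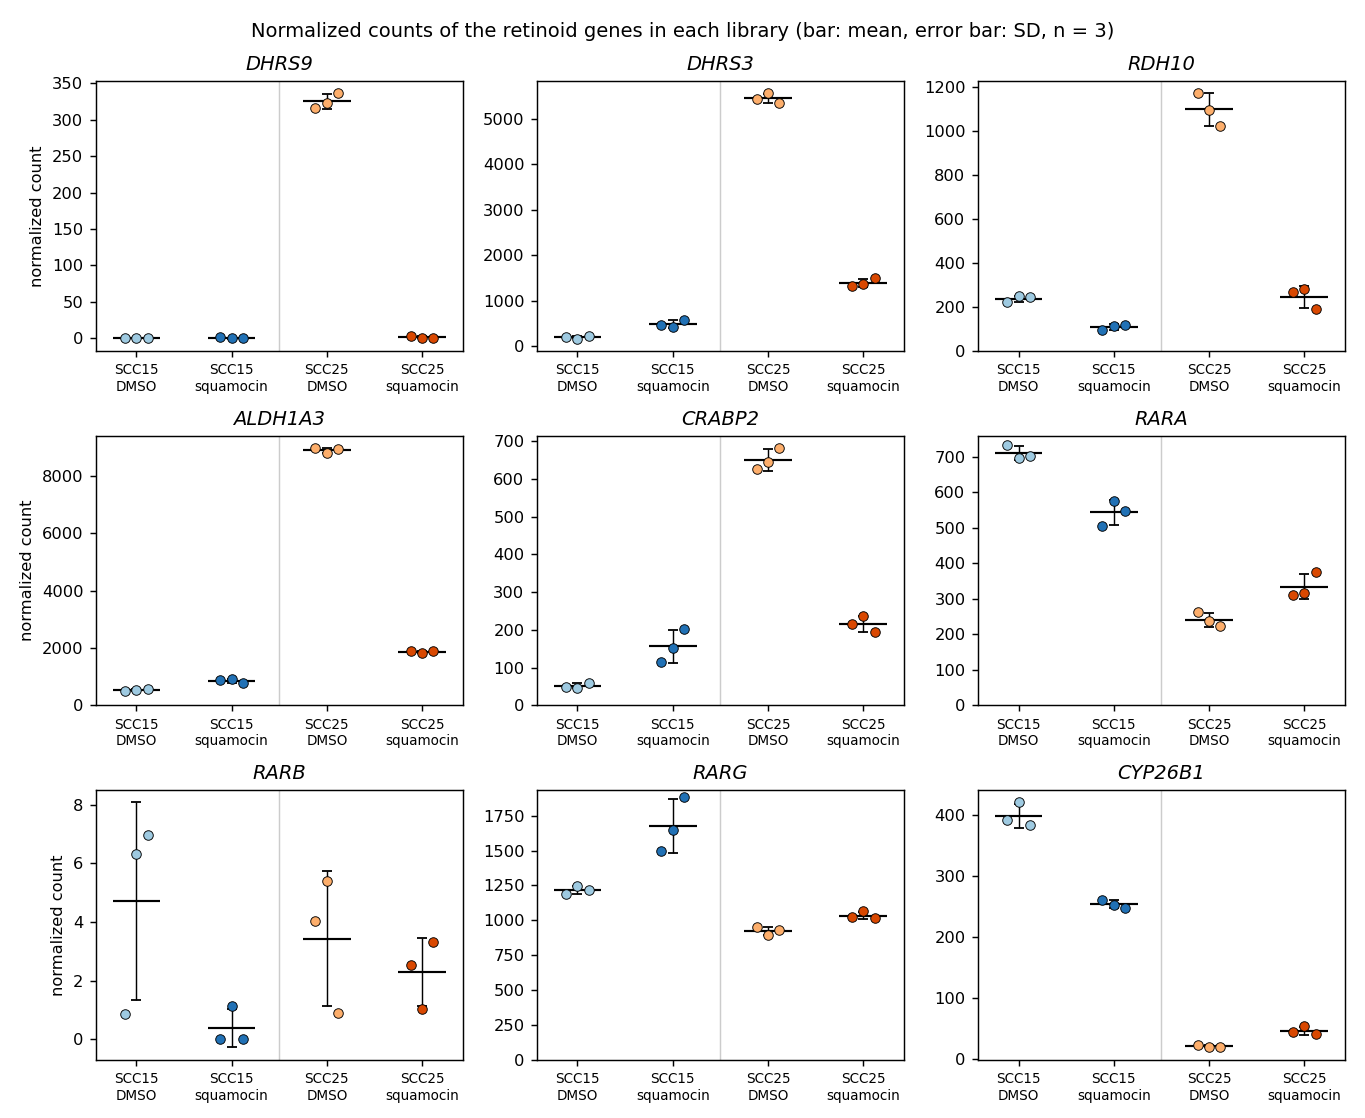
Normalized counts of each of the 9 genes in every library, for DMSO (light) and squamocin (dark) in SCC15 (blue) and SCC25 (orange), with the mean as a bar and the SD as an error bar (n = 3), each panel on its own linear axis. DHRS3, ALDH1A3 and CRABP2 lie above DMSO in SCC15 and below it in SCC25, RARA and CYP26B1 do the reverse, DHRS9 is near 0 in all but SCC25 with DMSO, and the difference of RARG turns its sign with equal library totals.

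Setting the 2 lines beside each other, 3 of the 7 members tested in both were called up in SCC15 but down in SCC25, and 2 were called the reverse, where 10.1% of all 14454 genes had opposite calls and 5.44% those of the former kind. The contrast of the 2 responses was called for all 7 of them and for 52.2% of all genes. As the members had been chosen on these values, nothing is read from these counts, nor from the count of narrowed folds that follows. The fold between the lines narrowed for 6 of these 7 members (42.5% of all genes): with DMSO and with squamocin respectively it was 25.7 and 2.78 for DHRS3, 15.4 and 2.11 for ALDH1A3, and 11.7 and 1.34 for CRABP2. It was 19.9 and 5.63 for CYP26B1, 4.27 and 2.20 for RDH10 and 3.19 and 1.67 for RARA, while for RARG it went from 1.43 to 1.67. In each case the line that was higher with DMSO was still the higher with squamocin by its mean, although the ranges of CRABP2 in the 2 lines then overlapped. The order per kilobase had also changed. In SCC25 with squamocin, DHRS3 (20.3 ± 1.4 RPM per kilobase) and ALDH1A3 (17.9 ± 0.34) still led, and RARG (10.3 ± 0.29) and CRABP2 (10.2 ± 1.0) overlapped. In SCC15 with squamocin, RARG led at 17.2 ± 1.9, and ALDH1A3 (8.49 ± 0.69), CRABP2 (7.59 ± 2.1), DHRS3 (7.29 ± 1.2) and RARA (6.03 ± 0.40) each overlapped the next.

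**Figure D3:**
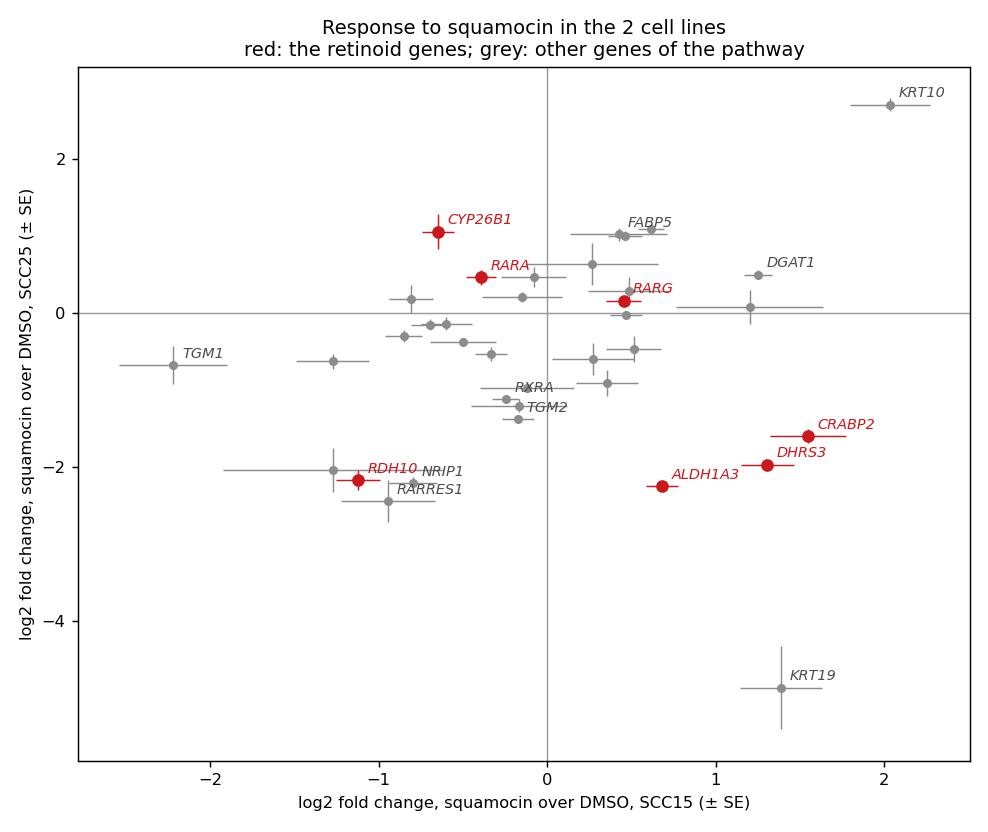
Log2 fold change with squamocin in SCC15 (horizontal) and SCC25 (vertical) with standard errors, for the 7 retinoid genes tested in both lines (red) and 30 other genes of the pathway (grey). DHRS3, ALDH1A3 and CRABP2 lie at the lower right with KRT19, whose SCC25 value rests on a group at the read floor. RARA and CYP26B1 lie at the upper left, RDH10 at the lower left, and RARG at the upper right, where it does not stay with equal library totals.

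Across the 12 libraries, each gene centred within its cell line, DHRS3 ran with CRABP2 (Pearson r = 0.96) and ALDH1A3 (r = 0.94) and against CYP26B1 (r = -0.97). These correlations follow from the treatment that the libraries share and are given as a description. Among 9672 protein-coding genes outside the pathway with a mean of at least 100 in both tables, the gene most like each member over the 12 libraries was PFKL for DHRS3 (r = 0.995), EIF4H for ALDH1A3 (0.998), CSRP1 for CRABP2 (0.989), SNX1 for RDH10 (0.993), GTF2A1 for CYP26B1 (0.989), HIP1R for RARA (0.946) and TSSC4 for RARG (0.993).

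The remainder of the pathway was examined through 54 genes listed by role, of which 51 were in a table. In SCC15, 37 were tested, and 9 were higher, 14 lower and 14 not called with squamocin. In SCC25, 32 were tested, and 8 were higher, 18 lower and 6 not called. Their median log2 fold change was -0.17 in SCC15 and -0.42 in SCC25, against 0.012 and -0.015 over all genes tested. Without replicate 3 of SCC15 with squamocin, 11 were higher and 19 lower in SCC15. The called share was 23 of 37 beside a background of 61.0% in SCC15 and 26 of 32 beside 76.8% in SCC25. Of the 30 tested in both lines, 4 were higher in both, 7 lower in both, and 2 were up in SCC15 but down in SCC25, where these were 22.1%, 18.6% and 5.44% of all genes. The counts include 2 genes in SCC15 (RARRES2 and TGM1) and 2 in SCC25 (STRA6 and KRT19) that passed the filter through 1 treatment alone.

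Of the genes commonly given as induced by retinoic acid, 5 of the 7 tested in SCC25 fell and 0 rose, where 38.5% of all genes fell and 38.3% rose. In SCC15, 4 of 8 fell and 1 rose, where 30.0% of all genes fell and 30.9% rose. Their median log2 fold change was -1.21 in SCC25 and -0.49 in SCC15. These counts and medians include KRT19 in SCC25 and RARRES2 in SCC15. Both passed the filter there through their DMSO libraries alone, so they could be called only lower. TGM2, a transglutaminase, fell from 5730 ± 71 to 2203 ± 133 normalized counts in SCC25 (log2 fold change -1.38, SE 0.047, limma adjusted p = 6.31e-11). RARRES3 fell there from 811 ± 27 to 353 ± 45 (log2 fold change -1.21, adjusted p = 4.79e-08) and RARRES1 from 58.7 ± 8.7 to 10.03 ± 2.4 (-2.45, adjusted p = 3.65e-06). In SCC15, TGM2 was at -0.17 (adjusted p = 0.15) and RARRES3 at -0.17 (adjusted p = 0.63), and both passed the threshold without squamocin replicate 3, at -0.14 and -0.54.

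RARRES2, which encodes chemerin, held 170 reads with DMSO and 6 with squamocin in SCC15, all squamocin libraries being at the floor, a DMSO to squamocin read ratio of 20.1 (exact 95% interval 9.05 to 55.6). MEIS2, a homeobox gene, fell in both lines (log2 fold change -1.27, adjusted p = 0.0019 in SCC15 and -0.63, adjusted p = 8.2e-05 in SCC25 by limma). RARRES1 in SCC15 was at -0.94 (adjusted p = 0.020), a call lost when any one library other than squamocin replicate 3 was left out. KRT19, the simple epithelial keratin, went opposite ways, from 40.8 ± 3.5 to 112 ± 33 normalized counts in SCC15 (log2 fold change 1.39, adjusted p = 0.0020) and from 152 reads to 2 over the SCC25 libraries (read ratio of DMSO to squamocin 57.8 (exact 95% interval 15.7 to 482)). KRT19 did not differ detectably between the untreated lines (log2 difference 0.012, adjusted p = 0.95).

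Of the genes commonly given as lowered by retinoids in keratinocytes, only KRT10 and TGM1 were high enough to test, and they moved apart. KRT10, a keratin of differentiating layers, rose from 506 ± 77 to 2145 ± 770 normalized counts in SCC15 and from 312 ± 40 to 2037 ± 33 in SCC25 (log2 fold change 2.04 and 2.71, adjusted p = 0.00035 and 2.5e-11). TGM1, the transglutaminase of the cornified envelope, fell from 49.1 ± 9.95 to 30.6 ± 7.0 in SCC25 (log2 fold change -0.67, adjusted p = 0.024). In SCC15 it went from 37.6 ± 6.9 to 7.4 ± 2.2 (-2.22), but it passed the filter there through its DMSO libraries alone, so no test is given. The SCC25 call of TGM1 was lost without squamocin replicate 1 (-0.49) or DMSO replicate 2 (-0.52).

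Among the receptors that pair with RAR, RXRA fell from 4151 ± 93 to 1916 ± 81 normalized counts in SCC25 (log2 fold change -1.12, adjusted p = 2.6e-10). In SCC15 the log2 fold change of RXRA was -0.24 (adjusted p = 0.032), a call lost when any one library other than squamocin replicate 3 was left out. RXRB was at 0.47 in SCC15 (adjusted p = 0.0039), or -0.029 with equal library totals, and at -0.019 in SCC25 (adjusted p = 0.72). RXRG was called lower in SCC15 at -1.04 (adjusted p = 0.012), a call lost without DMSO replicate 2 (-0.87), and RXRG was not listed in the SCC25 table. PPARD, a receptor that can also bind retinoic acid, rose in SCC25 from 1019 ± 7.9 to 2055 ± 143 (1.01, adjusted p = 4.1e-09) and was at 0.46 in SCC15 (adjusted p = 0.0059), or -0.037 there with equal library totals.

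Of the 6 coregulators, 3 fell and 0 rose in SCC15, and 4 fell and 1 (NCOR1, 0.21) rose in SCC25, where of all genes 30.0% fell and 30.9% rose in SCC15 and 38.5% and 38.3% in SCC25. NRIP1, a corepressor induced through RAR, fell in both lines, from 814 ± 19 to 475 ± 88 normalized counts in SCC15 (log2 fold change -0.80, adjusted p = 0.0024) and from 2605 ± 79 to 564 ± 75 in SCC25 (-2.21, adjusted p = 8.7e-11). NCOA1, a coactivator, fell in both as well (-0.85 and -0.29, adjusted p = 0.00056 and 0.0048). NCOA3 was not called in SCC15 (-0.50, limma adjusted p = 0.058), but was called lower in several alternatives, among them without squamocin replicate 3 (-0.25).

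In uptake and binding, STRA6, the retinol importer, went in SCC25 from 27.6 ± 1.6 to 6.8 ± 1.9 normalized counts (log2 fold change -1.90). It passed the filter there through its DMSO libraries alone, so no test is given, and it was below the filter in SCC15. FABP5, which binds retinoic acid beside fatty acids, rose in SCC25 from 387 ± 27 to 788 ± 80 (1.02, adjusted p = 2.1e-07), and RBP5 fell there (-2.04, adjusted p = 2.4e-05). In SCC15 only RBP4 of the 5 tested was called (1.30, adjusted p = 0.020), a call lost without DMSO replicate 1 or 3 and with equal library totals. RBP5 was at -1.27 in SCC15 (SE 0.65, limma adjusted p = 0.13), and was called lower there without squamocin replicate 3, at -0.39. In storage, DGAT1, which can esterify retinol, rose in both lines (1.25 and 0.50, adjusted p = 3.9e-05 and 7.6e-06), and LRAT, which esterifies retinol for storage, was at 0.36 in SCC15 (adjusted p = 0.13) and fell in SCC25 (-0.91, adjusted p = 0.00032).

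Among the other oxidoreductases, 3 of 8 rose and 2 fell in SCC15, and 2 of 6 rose and 2 fell in SCC25, beside the same shares of all genes. RDH11, a broadly expressed retinaldehyde reductase, went from 2074 ± 22 to 3183 ± 126 normalized counts in SCC15 and from 1618 ± 56 to 3438 ± 37 in SCC25 (log2 fold change 0.62 and 1.09, adjusted p = 0.00047 and 2.5e-10), the SCC15 value being 0.12 and not past the threshold with equal library totals. The other retinaldehyde dehydrogenases were scarce: ALDH1A2 was called lower in SCC15 (-0.97, adjusted p = 0.036) and ALDH1A1 in SCC25 (-1.43, adjusted p = 0.038), and both calls were lost in several alternatives, among them ALDH1A1 by edgeR (adjusted p = 0.13). ALDH1A1 had 19.4 ± 22.6 normalized counts with squamocin and 35.5 ± 2.3 with DMSO in SCC25, the libraries overlapped, and its log2 fold change ran from -2.32 to -0.98 with 1 library left out. Of the other CYP26 genes, CYP26A1 and CYP26C1 held 16 and 46 reads over the SCC15 libraries with DMSO and 5 and 3 over those of SCC25, too few to test.

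**Figure D4:**
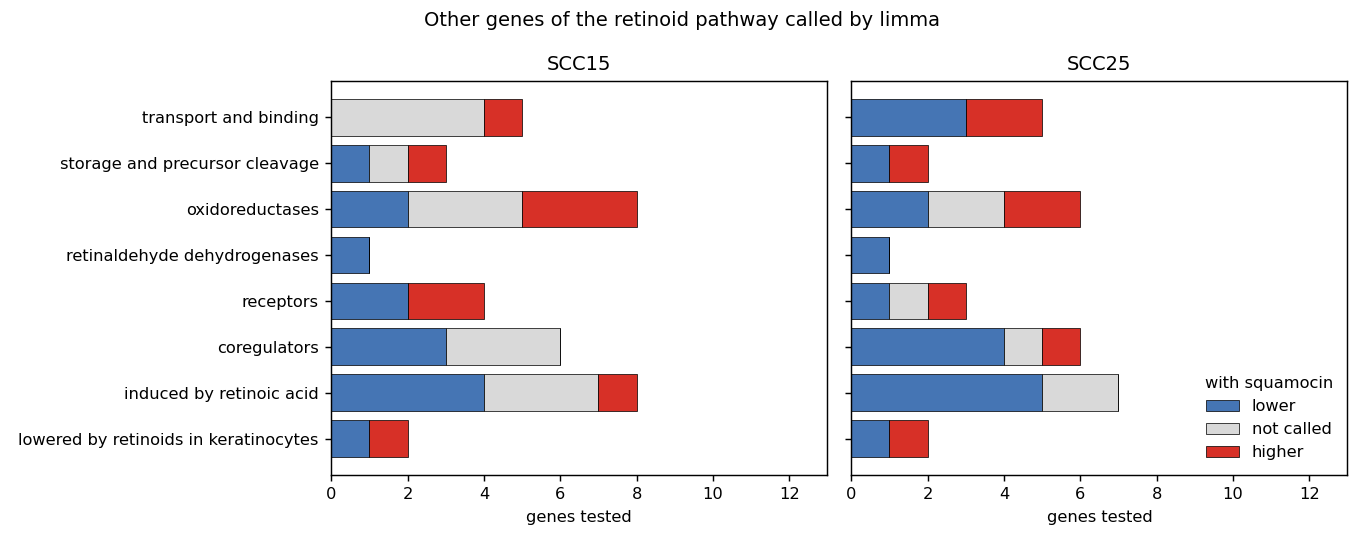
Number of pathway genes outside the 9 members that limma called lower (blue), higher (red) or neither (grey) with squamocin, by role, in SCC15 (left) and SCC25 (right). The bar of genes induced by retinoic acid holds 4 lower and 1 higher of 8 in SCC15 and 5 lower and 0 higher of 7 in SCC25, and that of coregulators 3 lower of 6 and 4 lower of 6. RARRES2 and TGM1 in SCC15 and STRA6 and KRT19 in SCC25, all shown as lower, passed the filter through their DMSO libraries alone.

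Between the untreated lines, 20 of the 36 other pathway genes tested were higher in SCC15, 10 lower and 6 not called, where 81.2% of all genes were called (40.7% higher, 40.5% lower). Of the 36, 5 (STRA6, BCO2, AKR1B10, ALDH1A1 and ALDH1A2) passed the filter through 1 line alone. Other genes that act on retinol and retinaldehyde lay on either side: SDR16C5 (0.84), DHRS4 (0.64), RDH11 (0.47) and RDH13 (0.41) were higher in SCC15 with limma adjusted p of 6.5e-06, 2.2e-05, 1.9e-09 and 6.7e-05, and RDH14 (-0.43) and RDH16 (-1.59) in SCC25 with 5.6e-05 and 0.00028. ALDH1A2 had 112 reads over the untreated SCC15 libraries and 14 over those of SCC25, and ALDH1A1 had 12 and 124. RXRA (log2 difference -1.16), RXRB (-0.89) and NRIP1 (-1.56) were higher in SCC25 with limma adjusted p of 3.3e-15, 6.6e-11 and 9.1e-16. RARRES3 (1.59) and RBP5 (1.66) were higher in SCC15 with adjusted p of 1.6e-14 and 6.4e-11. LRAT was higher in SCC25 (-1.44, adjusted p = 2.7e-07). STRA6, for which no test is given, held 21 reads over the untreated SCC15 libraries and 96 over those of SCC25.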

How the data were processed

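RNA-seq of SCC15 and SCC25 cells with squamocin or DMSO was analysed, with 3 libraries per group and 12 in all. Per the submitters' processing notes the authors aligned reads to GRCh38 with HISAT2 2.0.5 and counted them per gene with featureCounts 1.5.0-p3. Within each cell line the authors scaled the reads of a gene by 1 size factor per library, and these normalized values are the signal deposited. It is not FPKM, although columns of the SCC25 table carry that name. The authors' own group means, fold changes and p-values were not used.

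The size factors were recovered from the values, and the values times the factor were whole within 0.01 for 100% of genes in each library, giving 16665563 to 22748845 reads per library. Genes with a mean of at least 10 were tested by limma 3.58.1 (eBayes with a trend, two-sided) in R 4.3.3 on log2(normalized count + 1), with Benjamini-Hochberg adjustment over all genes and a threshold of 0.05. Fold changes are on that scale and understate the change of low genes. The untreated lines were compared on recovered reads over TMM-scaled library sizes (edgeR 4.0.16), and the difference of the responses as a contrast over all 12 libraries. A group with at most 3 reads in every library was treated as at the floor. Reads were compared there by their ratio with an exact (Clopper-Pearson) 95% interval. Levels per kilobase used the exonic length in GENCODE 44, and promoter sequences were those of RefSeq.

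The members and the gene lists were chosen with earlier results of these data known. Besides the members, the genes named were, in each role and cell line, at most the 4 called with the largest absolute log2 fold change, and for each member the 1 most correlated gene; values set beside these for the other cell line, and NCOR1, the CYP26 genes and the genes named for the untreated comparison, were added after their values were seen. The count tests run on the recovered reads called 9831 genes in SCC15 and 12797 in SCC25 by edgeR, and 9965 and 12190 by DESeq2 1.42.0, beside 9694 and 12702 by limma. The other alternatives were pseudocounts of 0.1 and 10, no filter, TMM factors, equal library totals, DESeq2 size factors for the untreated lines, a replicate block, and each library left out in turn. The scripts were tested on simulated data. A few genes of the lists were counted but are not reported singly here.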

Additional observations from a re-analysis of the deposited data

Results flagged for a closer look

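The response to squamocin differed between the cell lines, by the limma contrast of the 2 responses with Benjamini-Hochberg adjustment, for these genes among the 52.2% of 14454 genes for which it did. The values are the log2 fold change in SCC15 minus that in SCC25. For the members, which had been chosen on the values of this comparison, they are a description. They were 3.28 for DHRS3, 3.15 for CRABP2, 2.94 for ALDH1A3, 1.05 for RDH10, 0.29 for RARG, -0.85 for RARA and -1.70 for CYP26B1. Without replicate 3 of SCC15 with squamocin they were 3.15, 2.95, 3.00, 1.00, 0.20, -0.86 and -1.69. The value of RARG was no longer past the threshold under most alternatives and was 0.0021 with equal library totals.

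Among the other genes of the pathway, the difference was positive for KRT19 (6.26, with SCC25 squamocin libraries at the read floor), RARRES1 (1.51), NRIP1 (1.42), LRAT (1.27), TGM2 (1.21), RARRES3 (1.04), DHRS4 (0.98), RXRA (0.87), DGAT1 (0.75) and RXRB (0.49). It was negative for TGM1 (-1.55, having passed the filter in SCC15 through its DMSO libraries alone), MEIS2 (-0.64), NCOA1 (-0.56), PPARD (-0.55), NCOA2 (-0.54), RDH11 (-0.47) and RDH14 (-0.46). DHRS4 has close paralogs among its neighbouring genes, between which reads may have been split.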

How the results depend on the processing

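Of the values of the 8 members that could be fitted (all but RARB), 444 kept their direction and their side of the threshold, 16 lost the threshold and 2 turned sign. Those that turned were RARG with equal library totals, at -0.043 in SCC15 and -0.045 in SCC25. Of the other pathway genes reported singly, 1137 values kept both, 62 lost the threshold, 17 gained it and 2 turned sign, namely PPARD (-0.037) and RXRB (-0.029) in SCC15 with equal library totals. In the untreated comparison none of the 8 members tested changed its sign or its side of the threshold under any alternative run. RARG in SCC25 lost its call without DMSO replicate 2 (0.14). The count of pathway genes changed in SCC15 was 23 and ranged from 15 (without DMSO replicate 2) to 30 (without squamocin replicate 3) with 1 library left out.

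Equal library totals moved the median log2 fold change of all genes from 0.012 to -0.48 in SCC15 and from -0.015 to -0.22 in SCC25, and that of the untreated comparison from 0.0065 to 0.13. The share of calls that were higher went from 50.8% to 22.7% in SCC15, from 49.9% to 39.1% in SCC25 and from 50.1% to 30.5% for the difference of the responses. In SCC15, 3 pathway genes were then higher and 19 lower, and in SCC25, 5 and 21. RARG lay above these medians in both lines. The cause was not tested.

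The replicate numbers did not pair the libraries, as the deviations of same-numbered libraries from their group means correlated between -0.051 and 0.011. With the replicate block, 9116 genes were called in SCC15, 12611 in SCC25, 7089 for the difference and 13658 between the untreated lines, beside 9694, 12702, 7540 and 13761 without it. Depth limits DHRS9 in SCC15 and RARB in both lines, for which changes of a few reads could not be detected.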

Other observations

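Several genes of retinoid handling were present at few reads. RBP2, a retinol-binding protein of the intestine, held 14 reads over the SCC15 libraries with DMSO and 17 over those of SCC25, and 0 with squamocin in both lines. BCO1, which cleaves carotene, went from 39 reads to 13 under squamocin in SCC15 and from 15 to 0 in SCC25. ALDH1A1 went from 12 reads to 0 in SCC15. These genes were below the filter and were not tested.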
